A study of Mus musculus with 24 samples.

Results

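Alveolar epithelial cells (AECs) of mice without Krt8 were compared between day 0, when the type II cells (AEC2s) had just been isolated, and day 7 of 2D culture. The members were the 6 libraries labelled as knockout for Krt8 (Krt8-/-) and collected on either day, out of 24 in the series. They were paired by the date in the sample titles, taken as that of the isolation. This gave 3 isolations with a library on each day. All genes were considered: 18046 of the 55421 mouse genes in the table had enough counts to be tested. The study asked what keratin 8 does while AEC2s pass through a transitional state toward type I cells (AEC1s), and it sequenced the RNA of Krt8-/- and wild-type Krt8+/+ AECs on days 0, 1, 3 and 7. No treatment of the mice or cells is named in the labels, and the cells were grown on a stiff laminin-coated surface. The deletion was present in every cell of the animal rather than in AEC2s only, and neither the age of the mice nor how many made up an isolation was stated in what was read here. Isolations of both genotypes carry the same dates, and the day 7 cells of an isolation were set against its own day 0 cells.

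AEC2s secrete surfactant, a mixture of phospholipids and surfactant proteins that they store in lamellar bodies, and they are the stem cells from which the thin, gas-exchanging AEC1s are renewed. On their way, AEC2s pass through a flattened, keratin-rich transitional state, and in human fibrosis related cells with basal cell genes, called basaloid, are found. Keratin 8 is an intermediate filament protein that assembles in pairs with keratin 18 in simple epithelia. On a flat, stiff surface AEC2s lose surfactant genes and take on some AEC1 genes.

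Total counts ranged from 12731038 to 17861440 in the 6 libraries and from 10184439 to 19483386 in all 24. The values below are CPM (counts scaled to a common library size, here with TMM factors), in the order of isolations 1, 2 and 3, and the tests are edgeR's quasi-likelihood test with a Benjamini-Hochberg adjusted p under 0.05 over the 18046 genes. Krt8, the targeted gene (chromosome 15, 101996698 to 102004482 of GRCm38), stood at 36.4, 31.1 and 21.2 CPM on day 0 and at 29.8, 34.6 and 26.2 CPM on day 7 in Krt8-/- AECs, against means of 523 and 4026 CPM in Krt8+/+ AECs on those days. All 6 libraries thus lay far below the Krt8+/+ libraries, and the ranges of the days overlapped. The transcripts of Y-linked genes such as Ddx3y were counted in isolations 1 and 3 on both days and in isolation 2 on neither. Xist was at 11.29 and 11.94 CPM on days 0 and 7 in isolation 1, at 57.55 and 53.45 CPM in isolation 2 and at 2.238 and 0.06373 CPM in isolation 3. The isolations thus differed in sex-linked transcripts, and the paired comparison sets each isolation against itself.

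Over the week, 10709 genes changed in Krt8-/- AECs, which is 59.3% of the genes tested, with 5262 higher (29.2%) and 5447 lower (30.2%). The fitted change went beyond 4 on the log2 scale for 817 higher (4.53%) and 1130 lower genes (6.26%). The median over all genes tested was 0.01 on that scale. Of the genes that changed, 10537 (98.4%) moved the same way in each isolation, and the day 0 and day 7 values did not overlap for 11738 genes (65% of those tested). The split between higher and lower depends on the scaling: with library totals in place of TMM factors, 66% of the calls were higher (7446 higher and 3836 lower of 11282) instead of 49.1%, and the median of all genes moved by 0.42 on the log2 scale. Changes of less than that size are given below relative to the TMM scale only.

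A small set of abundant transcripts gave way to a broad one. On day 0 the 10 most abundant genes of a library held 26.1% to 31.3% of its counts and on day 7 4.83% to 6.73%, without overlap. Surfactant protein C (Sftpc) alone held 14.4% of the counts on day 0 on average. The other leading genes on day 0 were Sftpa1 (surfactant protein A), Lyz2 and Lyz1 (lysozymes) and Slc34a2 (the phosphate transporter of AEC2s). On day 7 the leading genes were Clu (clusterin, a secreted chaperone), Actb and Actg1 (cytoplasmic actins), Fn1 (fibronectin) and Ftl1 (ferritin light chain). Clu was at 205, 229 and 170 CPM on day 0 and at 9043, 10220 and 3734 CPM on day 7. It was higher in every isolation, by 5.19 on the log2 scale (SE 0.34, adjusted p = 2.38e-09), and isolation 3 had the lowest value on both days. Fn1 was at 51.8, 28.6 and 14.7 CPM on day 0 and at 6197, 9351 and 4996 CPM on day 7. The rise was 7.82 on the log2 scale (SE 0.70, adjusted p = 6.9e-08).

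**Figure D1:**
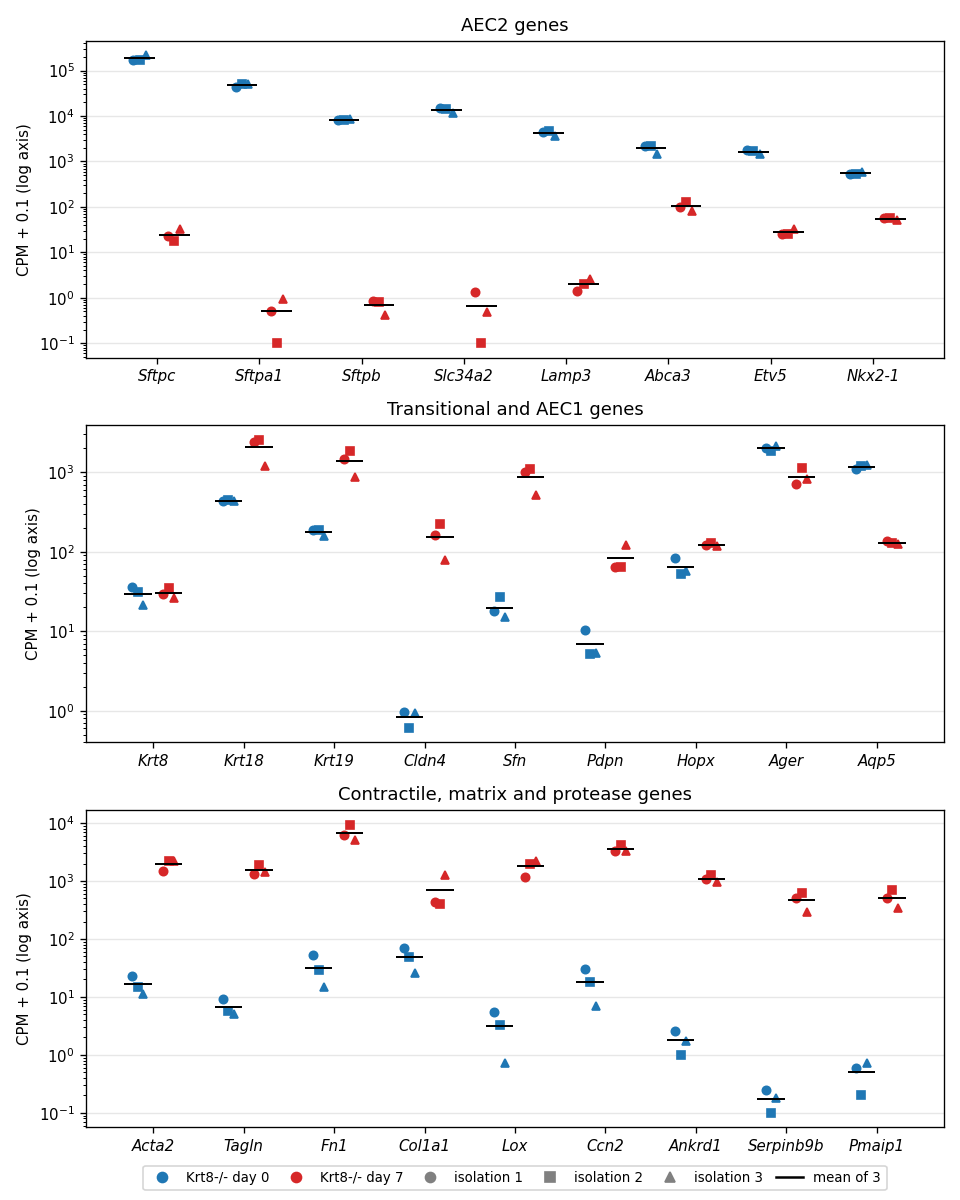
Levels of named genes in the 6 Krt8-/- libraries. The vertical axes give CPM plus 0.1 on a log scale, colours mark day 0 and day 7, marker shapes mark isolations 1 to 3 and the black bars are means of 3. Sftpc falls from a mean of 186700 to 24.2 CPM, the Krt8 points of both days overlap, and Acta2 rises from 16.3 to 1966 CPM.

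The surfactant system was lost almost completely. All 13 tested genes of surfactant and the lamellar body fell, with a median of -7.93 on the log2 scale, and their day 0 and day 7 values did not overlap. Sftpc was at 171000, 168500 and 220700 CPM on day 0 and at 22.62, 17.97 and 31.93 CPM on day 7. It fell by 12.97 on the log2 scale (SE 0.72, adjusted p = 4.05e-10), to a level that was still counted in each isolation. Sftpa1, whose protein is a collectin that binds microbes and lipid, had the largest fitted fall of the genes named here: 44620, 51360 and 51890 CPM on day 0 became 0.400, 0 and 0.829 CPM on day 7. The fall was 17.13 on the log2 scale (SE 1.06, adjusted p = 1.18e-09), from 1800711 counts over the group to 20.

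Sftpb, whose protein spreads surfactant lipid at the air surface, was at 8133, 8293 and 8421 CPM on day 0 and below 1 CPM in each isolation on day 7. Slc34a2 was at 15170, 14480 and 11750 CPM on day 0 and at 1.26, 0 and 0.382 CPM on day 7. Its mean was 13800 CPM on day 0, 18.8 CPM on day 1 and 1.42 CPM on day 3, whereas Sftpc still stood at a mean of 41310 CPM on day 1 and 273 CPM on day 3. Not every member was lost to this extent. Abca3, the phospholipid pump of the lamellar body, was at 2243, 2167 and 1463 CPM on day 0 and at 101, 128 and 79.5 CPM on day 7, a fall by 4.23 on the log2 scale (SE 0.61, adjusted p = 1.47e-05). Ctsh, a protease that processes surfactant proteins, had the smallest change of the 13, a fall by 2.49 on the log2 scale (SE 0.18). In bulk RNA, fewer cells of a type and less RNA per cell cannot be told apart.

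The 10 AEC2 markers of the study all fell, with a median of -9.82 on the log2 scale. Beside the 4 surfactant proteins they hold Lyz1, Lyz2, Sfta2, Fabp5 (a fatty acid carrier) and the MHC class II chains H2-Aa and H2-Ab1. Lyz1 fell by 12.92 on the log2 scale (SE 0.80), Sfta2 by 10.16 (SE 0.59), H2-Aa by 9.49 (SE 0.75), H2-Ab1 by 5.28 (SE 0.57) and Fabp5 by 4.40 (SE 0.39). Lyz2, which macrophages also express, differed most between isolations: it was at 38710, 37160 and 46320 CPM on day 0 and at 1541, 388 and 52.5 CPM on day 7. The day 7 order of isolations, highest in 1 and lowest in 3, was also that of the macrophage genes Cd68 (30.3, 11.4 and 2.55 CPM) and Itgax (20.3, 7.31 and 0.0637 CPM), and the part of macrophages in the Lyz2 value was not tested.

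The start of Sftpb is shown because its promoter is a textbook site of NKX2-1, the transcription factor that defines lung epithelium and whose own gene fell as well. RefSeq promoters were matched for 11694 of the 18046 genes tested, and the 250 bases before the start were searched on both strands for CTCAAG, the core of an NKX2-1 site. It occurred in 12.7% of all these promoters and in 14.7% of the 789 promoters of genes that fell beyond 4 on the log2 scale, and in 4 of the 8 matched surfactant and lamellar body promoters. The TEAD motif GGAATG was also found in 4 of those 8. A match is a description of the letters and not a measured site. The Sftpb sequence lies at chr6:72304360-72304609 of GRCm38 on the plus strand, 5′ to 3′, with matches in capitals.
Sftpb: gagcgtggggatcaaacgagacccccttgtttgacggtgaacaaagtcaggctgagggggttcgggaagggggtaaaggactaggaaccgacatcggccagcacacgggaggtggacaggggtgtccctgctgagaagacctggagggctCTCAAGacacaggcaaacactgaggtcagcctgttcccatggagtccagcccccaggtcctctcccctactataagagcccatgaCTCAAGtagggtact

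Genes of host defence fell with surfactant. All 16 genes of secreted host defence fell, with a median of -9.90 on the log2 scale. They include Scgb1a1, a club cell gene of the airway, so the list is not of AEC2s alone. Chia1, an acidic chitinase, was at 3681, 3753 and 4042 CPM on day 0 and was counted 3 times over the 3 libraries of day 7, a ratio of day 0 to day 7 of 58750 (95% counting interval 20100 to 284900). Cxcl15, the lung chemokine lungkine, was at 4735, 4756 and 5751 CPM on day 0 and at 0, 0.311 and 0.191 CPM on day 7. C6 and Lrg1, a complement component and a secreted glycoprotein, were each held by 1 count on day 7. All 7 genes of MHC class II fell, with a median of -5.28, and they include Ciita, the master regulator of the class. Ciita was at 32.0, 22.4 and 26.2 CPM on day 0 and was not counted on day 7, so that it was at least 421-fold lower when 3 counts in the day 7 group are taken as the limit of detection. Cd74, the invariant chain, was at 5101, 5447 and 6287 CPM on day 0 and at 108, 180 and 126 CPM on day 7. Of 10 genes of MHC class I and antigen processing, 8 fell and none rose, and the proteasome subunits Psmb9 (-4.48, SE 0.35) and Psmb8 (-2.39, SE 0.22) led them.

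The transcription factors of the lung epithelium were mostly lower: 17 of 20 fell and 3 rose, with a median of -2.32 on the log2 scale. Nkx2-1 was at 527, 522 and 590 CPM on day 0 and at 57.0, 56.5 and 51.8 CPM on day 7. It fell by 3.30 (SE 0.15, adjusted p = 8.08e-11), and the 3 isolations lay close together on both days. Etv5, an ETS factor that keeps AEC2 identity downstream of FGF signalling, went from 1746, 1736 and 1452 CPM to 24.7, 25.5 and 31.9 CPM (-5.92, SE 0.69). Cebpa, which drives lipid and surfactant genes, fell by 6.58 (SE 0.46), Ehf by 4.19 (SE 0.30), and Elf5 was left with 1 count on day 7 from 643 on day 0. The 3 that rose were Sox9, Hopx and Nfib. Sox9, which marks the tips of the branching airway in the embryo, was at 1.58, 1.42 and 1.00 CPM on day 0 and at 79.9, 102 and 65.7 CPM on day 7 (5.93, SE 0.39, adjusted p = 2.73e-09). Its means were 10.7 CPM on day 1 and 17.3 CPM on day 3, and the step was 2.98 on the log2 scale from day 0 to day 1 and 2.22 from day 3 to day 7.

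Many genes of metabolism and transport were lower too. Of 20 genes of fatty acid and phospholipid synthesis, 17 fell and 2 rose, with a median of -2.35 on the log2 scale. Scd1, the desaturase that makes monounsaturated fatty acids, was at 11730, 8467 and 6924 CPM on day 0 and at 32.7, 50.9 and 45.6 CPM on day 7 (-7.62, SE 0.88, adjusted p = 1.15e-06). Sterol synthesis had 18 lower and 1 higher of 20 genes and a median of -1.84, led by Insig1 (-3.57, SE 0.41), the sterol sensor partner, and Idi1 (-3.18, SE 0.30). Fatty acid oxidation and peroxisome genes had 13 lower and 2 higher of 20, with Cat, catalase, at -3.23 (SE 0.25), though Acadvl and Etfa turned to higher values with library totals. Xenobiotic metabolism, a list that holds the club cell gene Cyp2f2, had 17 lower and 1 higher of 20. Cbr2, a carbonyl reductase, was at 8691, 10200 and 10150 CPM on day 0 and at 5.71, 5.76 and 2.42 CPM on day 7, whereas Cyp1b1, the exception, rose by 5.64 (SE 0.39). Of 17 genes of ion and fluid transport, 13 fell and 3 rose. Cftr, the chloride channel of cystic fibrosis, went from 261, 288 and 209 CPM to 1.09, 2.80 and 1.02 CPM (-7.31, SE 0.56), and the 3 that rose were Ano1 (2.33, SE 0.19), Scnn1g (2.03, SE 0.31) and Slc6a14 (0.65, SE 0.19). Among 17 circadian clock genes 11 fell and 2 rose, and Dbp, an output factor of the clock, fell by 6.05 (SE 0.62).

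Glycolysis moved the other way, with 12 of 16 genes higher and 0 lower and a median of 0.90. Eno1, an enolase, went from 140, 152 and 173 CPM to 2281, 2059 and 3029 CPM (3.98, SE 0.15, adjusted p = 1.97e-11), and the glucose transporter Slc2a1 rose by 2.24 (SE 0.16). Respiratory chain genes had no common direction: 5 of 30 were higher and 7 lower, with a median of -0.05 that became 0.38 with library totals, with 12 higher and 0 lower.

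**Figure D2:**
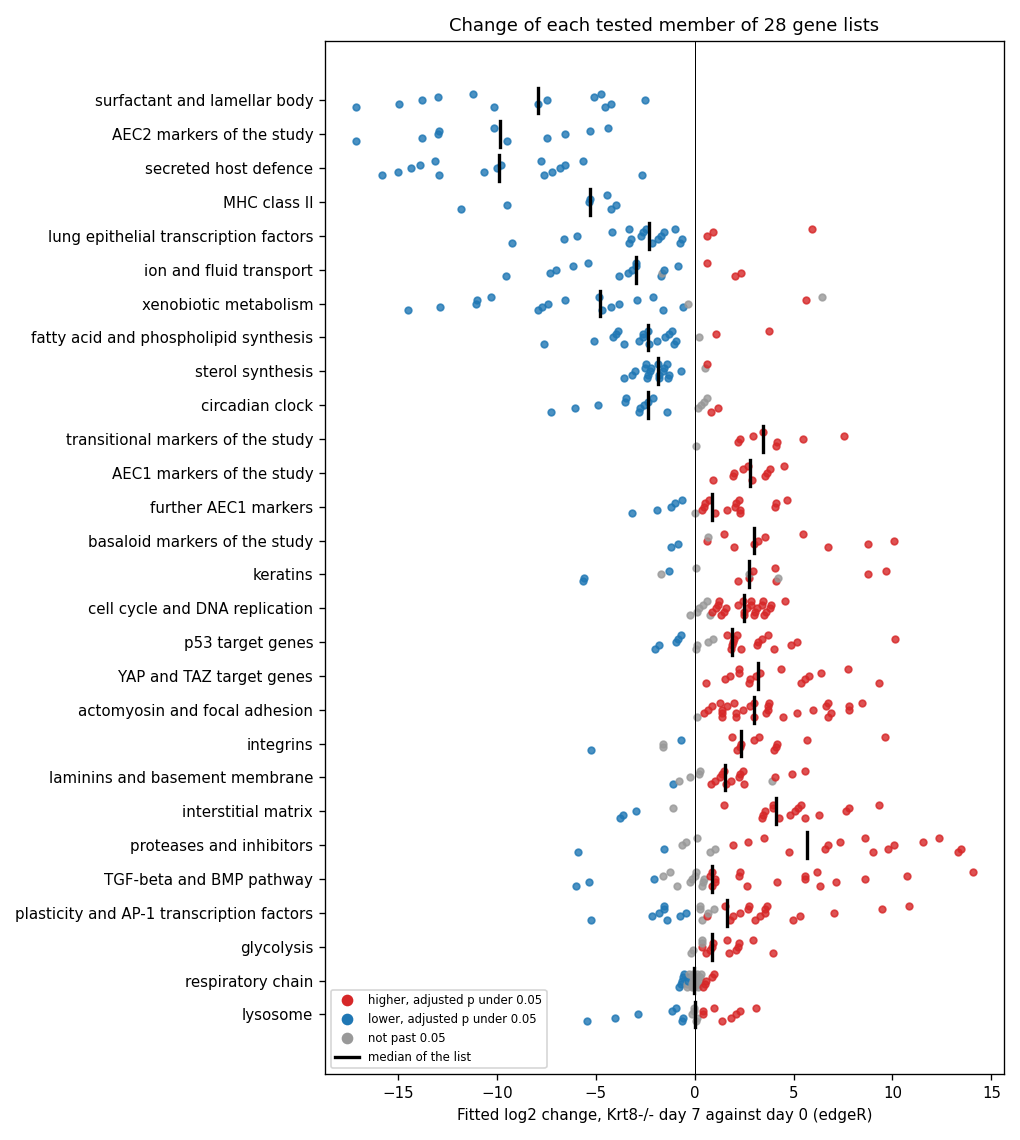
Fitted log2 change between day 0 and day 7 in Krt8-/- AECs (horizontal axis) for each tested member of 28 gene lists (rows). Points are genes coloured by the call of edgeR's test and black bars are medians. The surfactant, AEC2 and host defence lists lie wholly below 0, with medians of -7.93, -9.82 and -9.90, while the YAP and TAZ list lies wholly above it.

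Transitional state genes other than Krt8 rose. Of the 9 transitional markers of the study, 8 rose and Krt8 did not pass the test (0.05, SE 0.20, adjusted p = 0.848), and the median was 3.46 on the log2 scale. Krt18, the usual partner of keratin 8, was at 437, 445 and 433 CPM on day 0 and at 2398, 2566 and 1209 CPM on day 7 (2.20, SE 0.23, adjusted p = 4.43e-07). Krt19 went from 188, 187 and 160 CPM to 1456, 1854 and 878 CPM, and Krt7 from 203, 228 and 208 CPM to 3957, 5090 and 2405 CPM. In each of these keratins the groups did not overlap and isolation 3 was the lowest on day 7. On day 7 Krt18 stood at a mean of 4555 TPM, a level corrected for transcript length, Krt19 at 2394 TPM, Krt7 at 1722 TPM and Krt8 at 49.3 TPM.

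Cldn4, a tight junction claudin, had the largest fold of the list, from 0.863, 0.506 and 0.849 CPM to 161, 223 and 77.9 CPM (7.57, SE 0.64). Sfn, the cell cycle brake 14-3-3 sigma, rose by 5.47 (SE 0.36), Itgb6, the integrin chain that releases active TGF-beta, by 4.16 (SE 0.20), Anxa1, an anti-inflammatory annexin, by 3.46 (SE 0.21) and Trp53 by 2.28 (SE 0.14). Most of this rise was present on day 1, when the median of the list was already 3.04, against 3.36 on day 3. These medians share the day 0 libraries.

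Across 14 tested keratins, 7 rose, 3 fell and 4 did not pass the test. Krt17, a keratin of basal cells and wounded epithelium, had 0.288, 0.202 and 0 CPM on day 0 and 71.9, 107 and 50.2 CPM on day 7 (8.79, SE 0.70, adjusted p = 1.94e-08). Krt20, a keratin of gut and urothelial surface cells, was not counted on day 0 and was at 8.51, 10.8 and 3.76 CPM on day 7, at least 92.3-fold higher. Krt5, the defining keratin of basal cells, was at 0.216, 1.42 and 0.540 CPM on day 0 and 0.343, 0.156 and 0 CPM on day 7 (adjusted p = 0.23). Krt23 went down, from 271, 267 and 308 CPM to 7.43, 6.07 and 3.82 CPM (-5.60, SE 0.32), as did Krt15 (-5.65, SE 1.33) and Krt10 (-1.28, SE 0.28).

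All 10 AEC1 markers of the study rose, with a median of 2.80 on the log2 scale. Akap5, a kinase anchor, had the largest rise (4.54, SE 0.46), followed by Igfbp2, a binding protein of insulin-like growth factors (3.79, SE 0.57). Pdpn, podoplanin of the AEC1 surface, was at 10.1, 5.06 and 5.25 CPM on day 0 and at 65.1, 64.0 and 120 CPM on day 7 (3.64, SE 0.46, adjusted p = 3.38e-06). The smallest rise was that of Hopx, a homeodomain protein of AEC1s, from 82.3, 52.7 and 57.3 CPM to 124, 128 and 118 CPM (0.95, SE 0.20, adjusted p = 0.000711). Igfbp2 did not go straight up: its mean was 17.2 CPM on day 0, 1.67 CPM on day 1, 5.64 CPM on day 3 and 248 CPM on day 7, and Spock2, a matrix proteoglycan, went from 6.66 to 1.40, 2.16 and 26.0 CPM. The remaining members were Ier3 (3.55, SE 0.25), Pxdc1 (2.91, SE 0.25), Timp2 (2.68, SE 0.24), Cryab (2.46, SE 0.22), Rtkn2 (1.99, SE 0.48) and Spock2 (1.92, SE 0.55).

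The wider AEC1 program was mixed. Of 20 further AEC1 genes from general knowledge, 14 rose and 5 fell. Aqp5, the water channel of the AEC1 surface, was at 1116, 1198 and 1225 CPM on day 0 and at 136, 131 and 125 CPM on day 7 (-3.17, SE 0.22, adjusted p = 3.71e-09). Ager, the receptor RAGE and a widely used AEC1 marker, was at 2008, 1848 and 2179 CPM on day 0 and at 705, 1122 and 833 CPM on day 7 (-1.17, SE 0.40, adjusted p = 0.0189). Limch1 (-1.92, SE 0.45), Cldn18 (-1.01, SE 0.17) and Gramd2 were the other members that fell, and all 5 were lower in each isolation. Among those that rose were Fstl3, an activin antagonist (4.69, SE 0.21), and Col4a3, a basement membrane collagen (4.05, SE 0.43), which went from 21.86, 11.23 and 15.05 CPM to 219, 403 and 220 CPM.

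Of the 13 tested basaloid markers of the study, 10 rose, 2 fell and Atf3 did not pass the test (0.68, SE 0.46). The rises were led by Plau, the urokinase protease, which was not counted on day 0 and was at 11.1, 17.8 and 3.70 CPM on day 7, and Krt17 (8.79). They went on with Palld, an actin scaffold (6.72, SE 0.56), Sfn, Ier3, Cdh3 or P-cadherin (3.20, SE 0.53), the tropomyosins Tpm1 (3.00, SE 0.18) and Tpm4 (1.99, SE 0.12), the laminin chain Lamb3 and the factor Sox4 (0.61, SE 0.16). Zfp36l1 (-0.86, SE 0.16) and Phlda2 (-1.18, SE 0.39) were lower. S100a2 did not reach the count minimum.

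The cytoskeleton, the adhesions and the targets of the mechanosensitive regulators YAP and TAZ rose nearly throughout. Of 30 genes of actomyosin and focal adhesions, 29 rose and 0 fell, with a median of 3.00 on the log2 scale. Acta2, smooth muscle actin, was at 23.22, 14.77 and 11.04 CPM on day 0 and at 1459, 2251 and 2188 CPM on day 7 (6.92, SE 0.53, adjusted p = 1.14e-08). The contractile genes Cnn1 (8.44, SE 0.40), Tagln (7.83, SE 0.42) and Tpm2 (7.82, SE 0.39) rose further, and Tagln reached 1305, 1856 and 1450 CPM from 9.28, 5.66 and 4.94 CPM. The mean of Cnn1 was 5.06 CPM on day 1, 39.5 CPM on day 3 and 496 CPM on day 7.

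All 16 YAP and TAZ target genes rose, with a median of 3.21. Ankrd1, a muscle ankyrin repeat protein, went from 2.52, 0.910 and 1.62 CPM to 1067, 1271 and 962 CPM (9.32, SE 0.45, adjusted p = 1.21e-10). Ccn2, a matrix-associated growth factor, went from 30.1, 17.7 and 6.79 CPM to 3287, 4226 and 3297 CPM (7.73, SE 0.50), and F3, tissue factor, from 41.1, 45.6 and 32.7 CPM to 3357, 4713 and 2141 CPM (6.40, SE 0.27). In each of the 3 the lowest value on day 7 was far above the highest on day 0. Ccn1 rose by 5.36 (SE 0.40), from 105, 43.2 and 27.3 CPM to 2032, 2479 and 1914 CPM. Its promoter is shown because it holds GGAATG, the core bound by the TEAD partners of YAP, which was found in 7 of the 13 matched promoters of the list and in 10.9% of all promoters searched. It was found in 13.6% of the promoters of genes that rose beyond 4 on the log2 scale and in 13.6% of those that fell beyond 4. The 250 bases before the start of Ccn1 lie at chr3:145649986-145650235 of GRCm38 on the minus strand, with the match in capitals.
Ccn1: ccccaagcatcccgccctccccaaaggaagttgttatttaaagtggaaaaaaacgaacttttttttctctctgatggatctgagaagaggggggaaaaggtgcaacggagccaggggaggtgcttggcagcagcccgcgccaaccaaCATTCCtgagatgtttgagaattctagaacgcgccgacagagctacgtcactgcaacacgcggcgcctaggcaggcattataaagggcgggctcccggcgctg

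Integrins and matrix followed. Of 15 integrins 11 rose and 2 fell. Itga2, a collagen receptor chain, went from 0.575, 0 and 0 CPM to 227, 213 and 104 CPM (9.61, SE 0.72), and Itga5, the fibronectin receptor chain, from 15.2, 20.2 and 6.64 CPM to 532, 482 and 905 CPM (5.66, SE 0.45). Itga7, a laminin receptor chain, fell by 5.23 (SE 0.57). Laminin and basement membrane genes had 14 higher and 1 lower of 20, and interstitial matrix genes 16 higher and 3 lower of 20 with a median of 4.13. Lox, the enzyme that crosslinks collagen, rose from 5.46, 3.24 and 0.618 CPM to 1172, 1997 and 2255 CPM (9.31, SE 0.89, adjusted p = 1.51e-07). Tnc, tenascin C, rose by 7.63 (SE 0.64) and Col5a2 by 6.28 (SE 0.71), whereas Col6a1 (-3.75, SE 0.59), Col6a2 (-2.97, SE 0.47) and Eln, elastin (-3.60, SE 1.04), fell.

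The isolations differed in the matrix genes. The median change of the interstitial matrix list was 2.80, 2.92 and 6.00 on the log2 scale in isolations 1, 2 and 3. Col1a1 reached 442, 398 and 1259 CPM on day 7 from 70.1, 49.0 and 25.6 CPM (3.94, SE 0.59), and Pdgfrb, a receptor of pericytes and fibroblasts, 53.2, 36.9 and 197 CPM from 5.25, 4.05 and 3.17 CPM. Isolation 3 was thus the highest on day 7 and the lowest on day 0 for both. Isolation 3 also had the lowest summed level of 8 pan-epithelial markers on day 7, 2213 CPM against 4146 and 4745 CPM in isolations 1 and 2, when on day 0 the 3 had been between 3403 and 3574 CPM. Of those 8 markers, Krt18 rose, Epcam (-0.65, SE 0.26), Cldn3, Elf3 and Nkx2-1 fell, and Cdh1, Cldn7 and Esrp1 did not pass the test. Cdh1, E-cadherin, was at 1149, 1143 and 926 CPM on day 0 and at 884, 1217 and 568 CPM on day 7 (-0.30, SE 0.25, adjusted p = 0.317), and Cdh2, N-cadherin, was not counted on day 0 and was at 50.1, 46.1 and 122 CPM on day 7, at least 899-fold higher.

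Of 16 fibroblast and pericyte markers 7 rose, 5 fell and 4 did not pass the test. Their summed level went from between 532 and 1069 CPM to between 2609 and 5745 CPM, and Acta2 held a large part of the day 7 sums. The members that rose were Acta2, Cspg4, Thy1, Pdgfrb, Col1a1, Postn and Col1a2. Those that fell include the defining fibroblast genes Dcn, decorin, from 194, 195 and 130 CPM to 16.17, 9.258 and 11.98 CPM (-3.77, SE 0.26), Lum (-2.52, SE 0.71) and Mfap4 (-6.36, SE 1.02), while Pdgfra was at 28.5, 17.8 and 1.54 CPM on day 0 and 25.4, 15.2 and 50.9 CPM on day 7 (adjusted p = 0.193). Of the 6 mesothelial markers Msln rose (4.71, SE 0.49), Upk3b (-6.16, SE 0.69) and Lrrn4 (-3.12, SE 0.46) fell, and Wt1, Upk1b and Muc16 did not pass the test. Among all genes tested 29.2% rose and 30.2% fell, so the falls in either list are not set apart by their number. Without isolation 3, the same number of interstitial matrix genes, 16 of 20, rose, with a median of 2.91 on the log2 scale. The part of fibroblasts or mesothelial cells in the matrix and contractile genes was not tested, in isolation 3 or in the others.

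Genes of airway cells were lost as well. Of 14 club and ciliated cell markers 12 fell and none rose, and their sum went from between 15060 and 20380 CPM to between 427 and 567 CPM, of which Tubb4b, a tubulin that many cells use, held most. Scgb1a1, the club cell secretoglobin, was at 11340, 11140 and 16340 CPM on day 0 and at 17.5, 15.4 and 6.69 CPM on day 7 (-9.99, SE 0.43, adjusted p = 4.07e-11). Its mean was still 8814 CPM on day 1 and 965 CPM on day 3. Foxj1, the master regulator of motile cilia, fell by 2.59 (SE 0.38), and Scgb3a2 and Cyp2f2, both club cell genes, were among the 10 largest falls of genes that reached 10 CPM. Bpifa1, a secreted airway protein outside the 14 markers, had a mean of 948 CPM on day 0 in Krt8-/- AECs and 92.4 CPM in Krt8+/+ AECs. This difference between the genotypes on day 0 was not tested.

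The summed macrophage markers, mostly Lyz2, were between 37240 and 46340 CPM on day 0 and at 1774, 456 and 65.7 CPM on day 7. Of 15 tested macrophage markers 4 rose, 1 fell, which was Lyz2, and 10 did not pass the test, with Itgax (2.24, SE 0.79), Siglecf (1.95, SE 0.80), Marco and Ctss higher, against 29.2% higher among all genes tested. The day 0 and day 7 values of these 4 overlapped, and each of the 4 lost its call without the block. Itgax, Siglecf and Ctss also lost it without isolation 1, and Itgax, Siglecf and Marco without isolation 2. The median change of the list was 1.23, 0.26 and 0.00 in isolations 1, 2 and 3. Lymphocyte markers summed to between 16.9 and 35.6 CPM on day 0 and between 0.191 and 2.17 CPM on day 7, and endothelial markers to between 33.7 and 45.9 CPM and between 6.92 and 18.9 CPM. Igha, the constant chain of immunoglobulin A, was at 167, 58.9 and 9.19 CPM on day 0 and was not counted on day 7, and Ighm was at 30.0, 1.21 and 0 CPM on day 0. Both were highest in isolation 1.

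**Figure D3:**
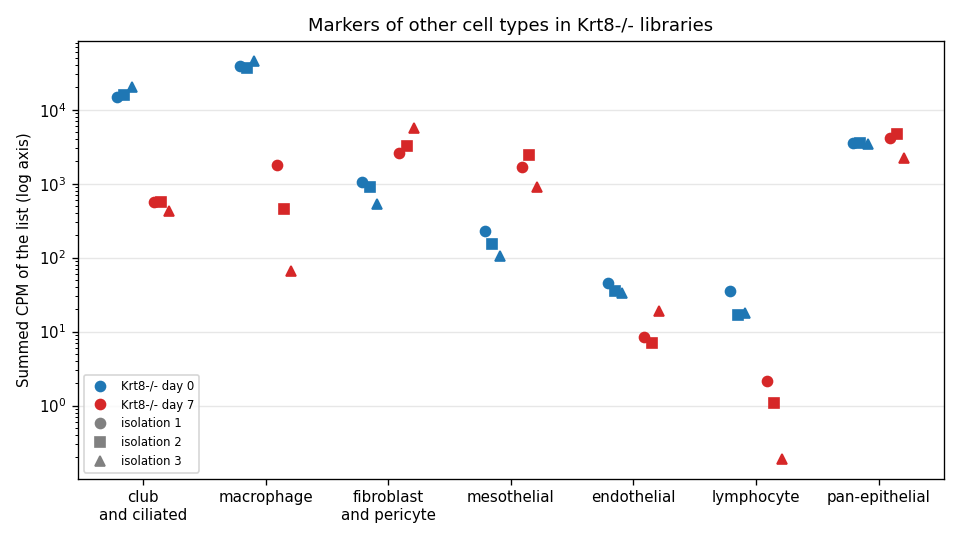
Summed CPM of marker lists of other cell types (vertical axis, log scale) in the 6 Krt8-/- libraries, by day (colour) and isolation (marker shape). The club and ciliated sums fall from at least 15060 to at most 567 CPM. The fibroblast and pericyte sums rise, with Acta2 a large part of them on day 7. Isolation 3 is the lowest on day 7 for the pan-epithelial and macrophage lists.

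Proteases and their inhibitors held some of the largest rises. Of 22, 15 rose and 2 fell, with a median of 5.70 on the log2 scale. Serpinb2, plasminogen activator inhibitor 2, was not counted on day 0 and was at 89.1, 91.1 and 117 CPM on day 7, at least 1215-fold higher. Mmp13, a collagenase, was not counted on day 0 either and was at 97.4, 32.9 and 130 CPM on day 7, at least 1109-fold higher, and Mmp10, stromelysin 2, was at least 299.8-fold higher. Serpinb9b, a granzyme inhibitor of the mouse, had 3 counts on day 0 and 21406 on day 7, a ratio of 5695 (95% counting interval 1948 to 27620). Mmp15, a membrane-bound protease, fell by 5.88 (SE 0.36). Serpinb2 was highest on day 3, with a mean of 278 CPM.

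Several such proteases are known targets of AP-1, the dimer of FOS and JUN proteins, and its subunits changed in opposite directions. Fosl1, a late FOS member, was at 0.575, 0.202 and 0.154 CPM on day 0 and at 44.5, 18.6 and 78.2 CPM on day 7 (7.07, SE 0.56), with a mean of 308 CPM on day 1. Fos was at 810, 254 and 105 CPM on day 0 and at 9.94, 7.24 and 7.65 CPM on day 7 (-5.26, SE 0.57), and Fosb (-2.14, SE 0.57) and Jun (-1.82, SE 0.38) fell too. On day 0 Fos, Fosb and Jun were highest in isolation 1 and lowest in isolation 3. The motif TGANTCA, the AP-1 site, was found in 5 of the 16 matched protease promoters, in 12% of the 551 promoters of genes that rose beyond 4 on the log2 scale, in 5.2% of the 789 that fell beyond 4 and in 4.62% of all 11694. The promoters of Serpinb2 (chr1:107511173-107511422, plus strand), Mmp13 (chr9:7272264-7272513, plus strand) and Mmp10 (chr9:7502092-7502341, plus strand) of GRCm38 are shown as examples with the motif, whose match is in capitals and starts 94, 35 and 63 bases before the start of the gene.
Serpinb2: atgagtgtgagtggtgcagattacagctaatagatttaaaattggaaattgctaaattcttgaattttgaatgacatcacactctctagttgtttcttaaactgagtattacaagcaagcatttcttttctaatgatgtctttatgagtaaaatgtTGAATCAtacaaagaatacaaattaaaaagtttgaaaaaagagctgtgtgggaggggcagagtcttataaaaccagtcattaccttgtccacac
Mmp13: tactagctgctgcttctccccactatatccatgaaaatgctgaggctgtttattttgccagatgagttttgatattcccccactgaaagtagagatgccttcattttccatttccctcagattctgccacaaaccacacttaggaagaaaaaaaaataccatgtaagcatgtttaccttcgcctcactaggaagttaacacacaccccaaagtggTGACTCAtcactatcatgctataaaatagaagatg
Mmp10: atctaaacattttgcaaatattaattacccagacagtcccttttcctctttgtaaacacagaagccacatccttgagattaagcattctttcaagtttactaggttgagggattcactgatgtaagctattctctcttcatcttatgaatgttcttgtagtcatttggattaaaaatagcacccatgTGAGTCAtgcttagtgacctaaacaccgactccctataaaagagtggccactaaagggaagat

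Of 30 plasticity and AP-1 transcription factors, the AP-1 genes above included, 17 rose and 8 fell. Fos, Fosb, Jun and Jund were among the 8. Hmga2, a chromatin protein of embryonic and tumour cells, was at 0.144, 0 and 0.386 CPM on day 0 and at 123, 43.2 and 215 CPM on day 7 (9.45, SE 1.02), and Sox11, a neural and embryonic factor, was not counted on day 0 and was at 18.1, 18.8 and 8.86 CPM on day 7. In the TGF-beta and BMP pathway 17 of 30 rose and 3 fell. The ligand subunit Inhba was at 0.216, 0.202 and 0.695 CPM on day 0 and at 694, 632 and 671 CPM on day 7 (10.74, SE 0.45, adjusted p = 4.07e-11), and the activin antagonist Fst rose by 7.15 (SE 0.37). Grem1, a BMP antagonist, was not counted on day 0 and was at 144, 72.6 and 217 CPM on day 7, at least 1827-fold higher, whereas the ligand Bmp4 fell by 6.02 (SE 0.32) and Tgfbi by 5.34 (SE 0.50). Among EGF receptor genes, Ereg (6.38, SE 0.63), Nrg1 (5.23, SE 0.39), Egfr (3.08, SE 0.21) and Hbegf rose, and Erbb3, Areg, Erbb2 and Tgfa fell.

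Cell cycle genes were higher on day 7, with 24 of 30 higher, 0 lower and a median of 2.49. Top2a, the topoisomerase of dividing cells, was at 7.98, 12.5 and 8.49 CPM on day 0 and at 61.1, 34.0 and 71.6 CPM on day 7, and Ccne1, the cyclin of S phase entry, rose by 4.56 (SE 0.42). The median of the list was -0.09 on day 1 and stood at 2.62 on day 3. Of 6 tested CDK inhibitors 2 rose and 2 fell, with a median of -0.47, against 29.2% higher and 30.2% lower among all genes tested. Cdkn2a, the p16 inhibitor, did not reach the count minimum. It had no count on day 0 and was counted on day 7. Cdkn1a, the p21 inhibitor, was at 54.7, 59.3 and 36.3 CPM on day 0 and at 656, 684 and 597 CPM on day 7 (3.69, SE 0.28, adjusted p = 1.14e-08), with a mean of 1463 CPM on day 1. Cdkn2b rose by 3.26 (SE 0.22), and Cdkn1c (-3.09, SE 0.39) and Cdkn1b (-1.91, SE 0.33) fell. Of 24 p53 targets 15 rose and 5 fell. Pmaip1, the cell death gene Noxa, was at 0.503, 0.101 and 0.618 CPM on day 0 and at 503, 689 and 336 CPM on day 7 (10.15, SE 0.68, adjusted p = 3.15e-09), and its mean was 48.2 CPM on day 3, so that most of its rise in CPM came after that day. Phlda3 rose by 4.03 (SE 0.14), and Btg2 (-1.99, SE 0.17) and Sesn1 (-1.80, SE 0.24) fell.

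Inflammatory and stress genes had no common direction. Of all genes tested 29.2% rose and 30.2% fell, 59.3% in all, and lists near those shares are not set apart by their counts. Of 20 chemokines 9 rose and 6 fell. Ccl2, which recruits monocytes, had 3 counts on day 0 and was at 9.71, 4.05 and 28.5 CPM on day 7, a ratio of 178 (95% counting interval 60.6 to 865), and Cxcl1 (-5.09, SE 0.51) and Cxcl2 (-4.40, SE 0.70), which attract neutrophils, fell. Of 22 interferon-stimulated genes 4 rose and 9 fell, and of 20 genes of the unfolded protein and integrated stress response 9 rose and 4 fell. In the latter list the amino acid response genes Asns (3.34, SE 0.26), Chac1 (3.16, SE 0.37), Atf5 and Trib3 were higher, and the endoplasmic reticulum genes Herpud1 (-2.37, SE 0.33), Dnajb9, Xbp1 and Dnajc3 lower. Among NRF2 targets 8 of 18 rose and 5 fell, with Nqo1 at 4.11 (SE 0.47) and Gclc at -3.06 (SE 0.26). Heat shock chaperones had 7 higher and 4 lower of 16, lysosome genes 8 higher and 7 lower of 20 (13 higher and 4 lower with library totals), and cadherins, claudins and junction genes 13 higher and 4 lower of 24.

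The 10 largest rises among genes that reached 10 CPM were Prl2c2 and Prl2c3 (proliferins, placental hormones of the mouse), Grem1, Serpinb2, Mmp13, Il1rl1 (the receptor of IL-33), Cck (cholecystokinin), Cdh2, Nrk (a kinase of placenta) and Eprn. None had a count on day 0. Prl2c2 was at 244, 54.5 and 374 CPM on day 7, at least 2885-fold higher, and Prl2c3, a near-identical paralog whose reads the counting could have split, at 59.6, 49.8 and 320 CPM. Il1rl1 was alike in the 3 isolations, at 81.1, 84.5 and 86.0 CPM on day 7, and it was already at a mean of 108 CPM on day 1. Among the genes tested, 274 that were called higher had no count on day 0 and 309 that were called lower had none on day 7. Such genes passed the count filter through other groups and could be called in 1 direction only. The largest falls that are not described above were Gm43085, at least 3670-fold lower, and Igha. The genes whose change varied most between isolations were Ighm, Bmper, Mmp12, Col14a1 and C1qtnf3, and Mmp12, the macrophage elastase, was at 107.8, 37.96 and 0.06373 CPM on day 7.

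Some changes had passed by day 7. On day 1 or day 3, 1437 genes differed from day 0 that on day 7 were not called and within 0.5 on the log2 scale. They had a mean of at least 10 CPM on the earlier day or day 0 and moved the same way in each isolation. No minimum was set on the earlier change and the return was not tested, so that small changes can be among them. Of all genes tested, 9503 (52.7%) had changed on day 3. The deiodinase Dio3, which inactivates thyroid hormone, had 3 counts on day 0, a mean of 23.4 CPM on day 1 (7.85 on the log2 scale against day 0, SE 1.14, adjusted p = 8.46e-05) and 3 counts on day 7. Ppp1r15a, the phosphatase subunit that ends the integrated stress response, was at a mean of 60.6 CPM on day 0, 988 CPM on day 1 and 54.1 CPM on day 7. Adh7, an alcohol dehydrogenase, peaked on day 1 with a mean of 50.9 CPM, and Sectm1a and Ifit3b, an immune receptor ligand and an interferon target, on day 3 with means of 40.7 and 13.8 CPM. Step by step, 9381 genes (52%) changed between days 0 and 1, 4417 (24.5%) between days 1 and 3 and 1922 (10.7%) between days 3 and 7. These steps share libraries with each other and with the net change.

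**Figure D4:**
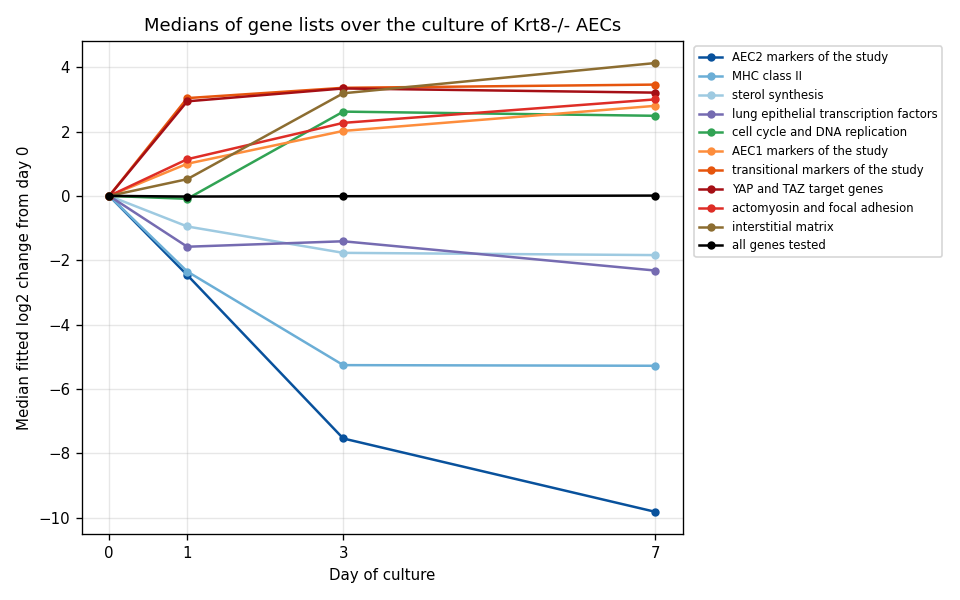
Median fitted log2 change from day 0 (vertical axis) of 10 gene lists and of all genes tested on days 0, 1, 3 and 7 (horizontal axis) in Krt8-/- AECs. The transitional and YAP and TAZ lists stand at 3.04 and 2.94 on day 1, whereas cell cycle genes are at -0.09 on day 1 and 2.62 on day 3, and interstitial matrix goes on to 4.13 on day 7.

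The last comparison asked whether the net change differed without Krt8. In Krt8+/+ AECs 10761 genes (59.6%) changed between the same days. Of them 9605 also changed the same way in Krt8-/- AECs, which is 89.7% of the calls in Krt8-/- and 89.3% of those in Krt8+/+ AECs, and 0 changed the opposite way. The genotypes share no library, but their isolations have the same dates. Across the 18046 genes the fitted changes of the genotypes had a Pearson correlation of 0.939, given as a description because genes are not independent.

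The test of the difference itself called 2 genes (0.0111% of those tested), and 370 genes (2.05%) had an unadjusted p under 0.05. That share lies under the 0.05 expected on average with no difference in any gene, so that the test may be conservative here. Krt8 rose by 2.93 on the log2 scale in Krt8+/+ AECs, and the difference of the changes, Krt8-/- minus Krt8+/+, was -2.88 (95% interval -3.48 to -2.27, adjusted p = 0.00031). The other was Krt8-ps, a pseudogene with which Krt8 can share reads (-2.66, adjusted p = 0.0419), whose call was lost with a block shared by both genotypes (adjusted p = 0.169), with no block (adjusted p = 0.178) and without any 1 isolation. The Krt8 call was lost without isolation 1 (adjusted p = 0.412) or isolation 2 (0.0511), with differences of -2.63 and -2.80. Krt18 rose from a mean of 438 to 2058 CPM in Krt8-/- AECs and from 285 to 3276 CPM in Krt8+/+ AECs. The difference was -1.30 (95% interval -1.96 to -0.63, unadjusted p = 0.000785, adjusted p = 1) and so did not pass.

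Among AEC1 markers, Hopx differed by -0.89 (95% interval -1.50 to -0.28, adjusted p = 1) and Pdpn by -1.08 (-2.44 to 0.28), and for Ager the difference was -0.15 (-1.33 to 1.03). For Krt19 it was -0.17 (-0.71 to 0.37) and for Krt7 -0.13 (-0.75 to 0.49), and both intervals lie within 1 of 0. For Sftpc it was -0.91 (-2.24 to 0.43). The medians of the lists stood side by side: -9.82 in Krt8-/- and -10.42 in Krt8+/+ AECs for AEC2 markers, 3.46 and 3.70 for transitional markers, 2.80 and 2.94 for AEC1 markers, 3.21 and 3.12 for YAP and TAZ targets, and 4.13 and 3.89 for interstitial matrix. Other medians lay further apart: 5.70 and 4.17 for proteases and inhibitors, 0.74 and 1.84 for chemokines, 1.15 and 0.13 for EGF receptor genes and -8.66 and -7.37 for club and ciliated markers. For single genes of these lists the difference had an unadjusted p under 0.05 for 3 of 22 proteases and inhibitors, 0 of 20 chemokines, 0 of 11 EGF receptor genes and 2 of 14 club and ciliated markers, and none passed after adjustment. On day 0 all wild-type sums of the club and ciliated markers (6580 to 12890 CPM) lay below the knockout sums (15060 to 20380). By day 7 the ranges overlapped (wild type 498 to 622, knockout 427 to 567). The part of these starting levels in the gap between the club and ciliated medians was not tested. The median standard error of the genotype difference in net change was 0.41 on the log2 scale. Differences well under 1 were thus mostly not detectable with 3 isolations. Larger differences could also go uncalled after adjustment over all genes tested, as that of Krt18 did. The gene Chtf18 rose by 2.71 in Krt8-/- and by 5.83 in Krt8+/+ AECs. Its difference did not pass edgeR's test (adjusted p = 0.272). The small number of calls therefore does not exclude differences of such sizes in other genes.

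**Figure D5:**
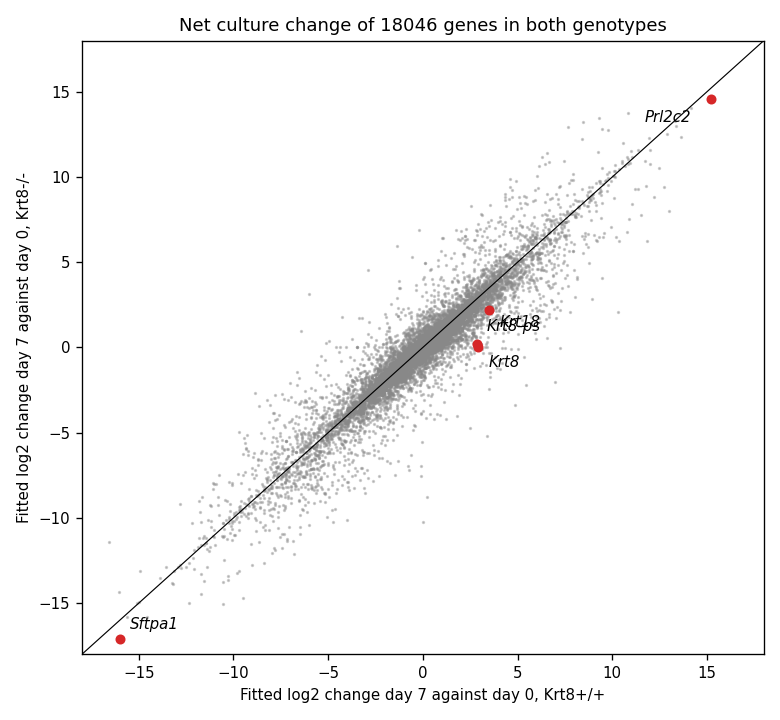
Fitted log2 change between day 0 and day 7 in Krt8+/+ (horizontal axis) and Krt8-/- AECs (vertical axis) for the 18046 genes tested, with the line of equal change. Krt8 and Krt8-ps lie below the line at changes of 2.93 and 2.85 in Krt8+/+ AECs and near 0 in Krt8-/- AECs, and far out along the axes the fitted values rest on few or 0 counts on 1 of the days.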

How the data were processed

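The members and gene lists were chosen with earlier results of these data known. The authors deposited 1 table of raw gene counts for 24 libraries of total RNA. The submitters' processing notes name cutadapt 2.3, STAR 2.7.8a, RSEM 1.3.3 and GRCm38 without giving their roles, and the values of the deposited count table are whole numbers, so that rounding of estimated counts, and the split of reads between near-identical genes, cannot be judged. Of 55426 entries, 55421 are mouse genes, and 5 reporter sequences had 0 counts. Symbols and coordinates came from the GENCODE M21 annotation of GRCm38. A symbol with several identifiers was given to the identifier with most counts.

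Genes were kept by edgeR's filter (minimum count 10, total 15). All 24 libraries were fitted in edgeR 4.0.16 (R 4.3.3) with TMM factors, 8 groups of genotype and day and the isolation as a block within genotype, which left 12 residual degrees of freedom. Standard errors were derived from the test, as the absolute fitted log2 change divided by the square root of its F statistic. The 95% intervals of the genotype differences were built from them. Both are approximate, most of all for genes with few or 0 counts on 1 day. The p-values are two-sided quasi-likelihood p-values after Benjamini-Hochberg adjustment. The date at the end of the sample titles was taken as that of the isolation, and it paired the days. Deviations of paired libraries on day 7 and day 0 correlated at 0.122, 0.0383 and 0.0847. The p-values measure how evenly a change between days recurred over the isolations, since the block takes out the level of each isolation. The spread is pooled over the 8 groups of both genotypes. The labels call the isolations biological replicates. No libraries held identical values. TPM used union exon lengths. A gene with no count in a group was given 3 counts there as a limit, and with 1 to 3 counts its ratio was given with an exact 95% interval, and both cover counting error only.

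Genes were named by rule: the 10 largest rises and falls among called genes with at least 10 CPM in the higher group and the same direction in each isolation; the 5 with the largest share of counts on either day; genes past the test of the genotype difference; the 5 largest changes that had passed by day 7; all members of the 4 lists of the study, and of other lists up to 4 higher and 4 lower or those a count needs; and the 5 that varied most between isolations. Some genes described beside them, such as Cd68 and Krt5, were chosen after their values were seen. On data simulated for the comparison of day 7 with day 0 (17433 genes), 69 of 97 genes changed 4-fold and 44 of 98 changed 2-fold were recovered, and 10 unchanged genes were called. The simulation gave each gene 1 mean in all libraries, held no isolation effect and changed only a small set of genes. In the real comparison 59.3% of genes were called, so these rates do not carry over to it. The alternatives were DESeq2 1.42.0, its size factors, library totals, no count filter, other sets of libraries, no block or a shared block, and leaving out each isolation. Python 3.11.15 with matplotlib 3.10.9 summarised and drew the values.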

Additional observations from a re-analysis of the deposited data

Results flagged for a closer look

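Krt8 was marked because its change between day 0 and day 7 differed between the genotypes by a test of the difference itself. The change in Krt8-/- minus that in Krt8+/+ AECs was -2.88 on the log2 scale (edgeR, adjusted p = 0.00031), from means of 29.5 and 30.2 CPM in Krt8-/- and of 523 and 4026 CPM in Krt8+/+ AECs. Krt8-ps was marked for the same reason, with a difference of -2.66 (adjusted p = 0.0419) and means of 1.07 and 1.24 CPM in Krt8-/- and of 17.5 and 126 CPM in Krt8+/+ AECs. Krt8 is the deleted gene, and its reads and those of the pseudogene may not be separable.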

How the results depend on the processing

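The number of genes that changed between day 0 and day 7 ranged from 8560 to 11282 over the alternatives, against 10709, and from 8560 to 9158 without 1 isolation. Without the replicate block it was 10558, of which 10378 were also called with it, and with 1 block shared by both genotypes it was 10959. With library totals the changes of Acadvl (0.01), Ctsb (0.39), Etfa (0.37), Hexa (0.38), Lamp1 (0.31), Ndufv1 (0.10), Pdia4 (0.35), Prdx6 (0.03) and Sdhc (0.08) turned to higher, since the median of all genes moves by 0.42. Of 7935 values of single genes over all alternatives, 7552 kept their direction and side of the threshold, 235 lost the call, 139 gained it and 9 reversed.

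The genotype difference called 1 gene with a shared block or with no replicate block, 5 with DESeq2 and 0 to 1 without an isolation. The Krt8 difference lost its call without isolation 1 or 2, and without 1 isolation it ranged from -2.63 to -3.19. That of Krt8-ps lost it with a shared block (-2.69, adjusted p = 0.169), with no replicate block (-2.65, adjusted p = 0.178) and without any isolation (-2.19 to -3.26). The step from day 1 to day 3 had 1835 to 2865 calls without an isolation, against 4417, and that from day 3 to day 7 had 882 to 1157, against 1922. Leaving out an isolation leaves fewer samples, and the other causes were not tested.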
